A study of Rattus norvegicus with 23 samples.

Results

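The comparison set the hearts of rats in which both the transplanted kidney and the recipient had chronic kidney disease (CKD) against the hearts of rats in which neither had it. Its 12 libraries, of 23 in the series, were chosen by the groups given in the sample titles and not by any measured value: 6 from CKD recipients of a kidney from a CKD donor (CD-CR) and 6 from healthy recipients of a kidney from a healthy donor (HD-HR). Each library came from the apex of the heart of 1 Lewis rat, collected 6 weeks after transplantation, and polyadenylated RNA was sequenced. Lewis is an inbred strain, so the grafts were isografts.

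In the CKD arm, branches of both renal arteries were coagulated to destroy part of the kidney tissue. L-NNA, which blocks the enzyme that makes nitric oxide, was then given in the water at 200 mg/L, and the powdered chow held 6% NaCl. Both were stopped when proteinuria reached 200 mg per 24 h, and rats entered the transplantation protocol at 100 mg per 24 h off this treatment. In CD-CR both the donor and the recipient had gone through this induction, and in HD-HR neither had. All 12 rats received a left kidney in the normal position after 30 min each of cold and warm ischemia, and lost the right native kidney 10 to 14 days later, so surgery, a graft and a single remaining kidney were common to both groups. The labels state neither age nor sex. The other 2 groups of the series, a CKD kidney in a healthy recipient (CD-HR, 6 libraries) and a healthy kidney in a CKD recipient (HD-CR, 5 libraries), entered the fit and serve below as libraries that this comparison did not use.

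Failing kidneys burden the heart through pressure and volume overload, retained solutes, disturbed mineral balance and activation of the renin-angiotensin and sympathetic systems. In CKD the left ventricle typically thickens, its interstitium gains collagen and its capillaries become sparser, and a loaded ventricle commonly shifts toward genes of the fetal heart. Loss of nitric oxide by itself raises blood pressure, so the induction could reach the heart by routes besides the kidney, which was not tested here. In this design CKD and the treatment that produced it cannot be told apart.

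The files identify genes by Ensembl rat identifiers only. The RefSeq table used here lists 47357 genes but has no Ensembl identifiers (0 filled cells in that column), so none of the 26405 identifiers could be paired with a name. Genes are therefore described by identifier, level and direction, and the markers of heart tissue and of other cell types were not checked. The libraries held 7605675 to 11484365 counts in genes in HD-HR and 7801127 to 12444980 in CD-CR. The animal names in the deposited files begin with 12 or 13, a prefix that no label explains. All 6 HD-HR rats had the prefix 13, whereas 5 CD-CR rats had 12 and only CD-CR5 had 13.

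Of 11568 genes tested, 422 (3.65%) differed between CD-CR and HD-HR at an adjusted p under 0.05 (edgeR quasi-likelihood test with Benjamini-Hochberg adjustment). In CD-CR 313 genes (2.71% of those tested) were higher and 109 (0.942%) were lower. The genes that rose did so by a median of 0.91 on the log2 scale (1.88-fold), with an interquartile range of 0.58 to 1.54. The genes that fell had a median of -0.68 (a 1.60-fold fall), with an interquartile range of -1.01 to -0.56. Over all genes tested the median was -0.01, with an interquartile range of -0.19 to 0.17. Large rises were far more numerous than large falls: 142 genes rose and 28 fell by at least 2-fold, and 50 rose and 2 fell by at least 4-fold. In bulk tissue fewer cells of a type and less RNA per cell cannot be told apart, so these are changes in the share of RNA in the apex.

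Most of the called genes separated the groups library by library. In 174 of the 313 genes that rose (55.6%) the lowest CD-CR library lay above the highest HD-HR library, and in 59 of the 109 that fell (54.1%) the highest CD-CR library lay below the lowest HD-HR library. Among all genes tested, 336 (2.9%) had such non-overlapping groups, 224 with CD-CR above (1.94%) and 112 with CD-CR below (0.968%). Because the same values decided the calls, this is a description of the called genes and not further evidence. In the remaining called genes at least 1 rat of one group fell within the range of the other.

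The plot of fold change against abundance shows where the 422 genes lay.

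**Figure D1:**
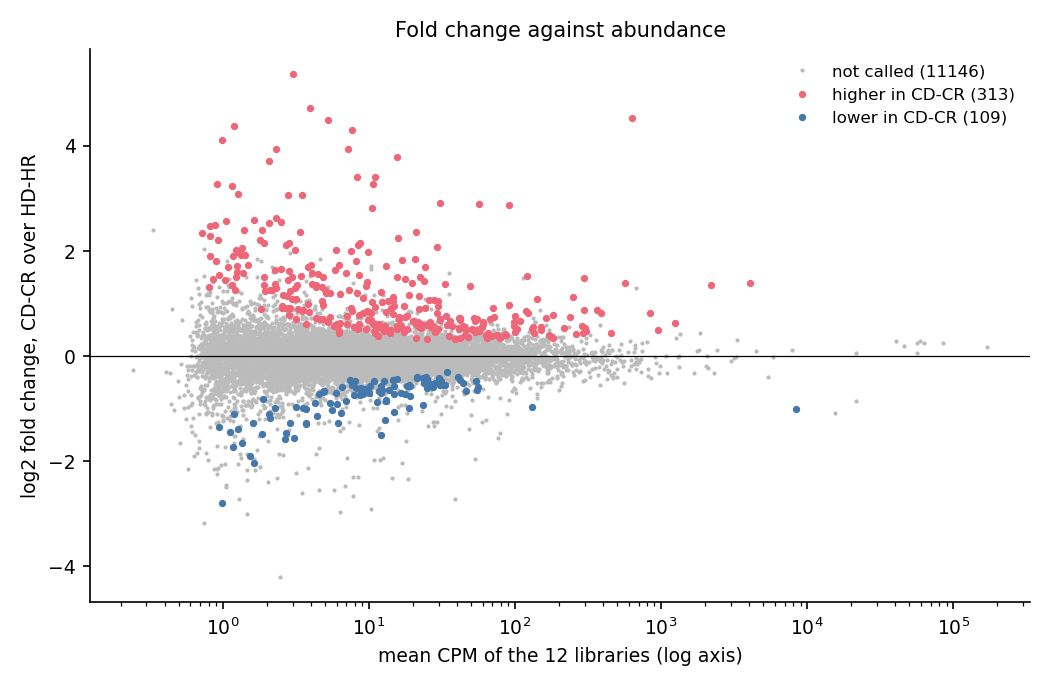
Each dot is 1 of 11568 genes, with the mean CPM (counts per 1000000 counts in the library, TMM-scaled) of the 12 libraries on a log axis and the log2 fold change of CD-CR over HD-HR on the vertical axis. Red dots are the 313 genes called higher in CD-CR, blue dots the 109 called lower and grey dots the genes not called. Above 100 CPM red dots outnumber blue by 37 to 2.

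Among abundant genes the changes were nearly all rises. Of the 562 genes averaging 100 CPM or more across both groups, 37 rose (6.58%) and 2 fell (0.356%). Below that level 276 of 11006 rose (2.51%) and 107 fell (0.972%). TMM scaling centres the bulk of genes, so these are changes relative to that centre. The median rise was 1.65 on the log2 scale among called genes of 1 to 3 CPM and 0.57 among those of 30 to 100 CPM, where the median standard errors of all tested genes were 0.289 and 0.122. It was 0.57 again at 100 to 300 CPM and 0.82 at 300 CPM or more, with median standard errors of 0.126 and 0.136. The called rises were therefore smallest from 30 to 300 CPM and not at the top of the range, where only 11 genes rose. Together the 313 genes that rose took 1.52% ± 0.235 of the counts in HD-HR (SD, n = 6) and 2.93% ± 1.08 in CD-CR (n = 6), and the 109 that fell took 1.36% ± 0.191 and 0.642% ± 0.249. The genes were chosen on these libraries, so the direction of both differences is built in. For the genes that rose CD-CR1 held 4.94%, and the other CD-CR libraries 1.95 to 3.30%. Most of the share of the genes that fell was that of 1 gene, described next, which averaged 11113 CPM in HD-HR and 5532 CPM in CD-CR.

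At the top of the abundance range, 12 of the 145 tested genes with at least 300 CPM were called, and 5 of these changed by at least 2-fold. These 5 were singled out after their values had been seen, and they are given by level because no name can be attached to them. The most abundant of all called genes was one that fell. In HD-HR its libraries kept close together, with HD-HR6 lowest at 10035 CPM and HD-HR4 highest at 12488 CPM. In CD-CR it ran from 1553 CPM in CD-CR1 and 2700 CPM in CD-CR6 up to 8538 CPM in CD-CR5, so that no CD-CR library reached HD-HR. The means were 11113 ± 894 CPM (SD, n = 6) and 5532 ± 2874 CPM (n = 6), a log2 fold change of -1.01 ± 0.28 (SE, adjusted p = 0.0469 by edgeR). This call was fragile: it was lost without any 1 of the 6 HD-HR libraries, without CD-CR2 or without CD-CR6, with an adjusted p between 0.0549 and 0.106 in those fits.

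The most abundant gene that rose went from 2253 ± 580 CPM in HD-HR (SD, n = 6) to 5881 ± 1136 CPM in CD-CR (n = 6), 2.61-fold (adjusted p = 0.00965 by edgeR). Its highest HD-HR library, HD-HR2, held 3230 CPM, and its lowest CD-CR library, CD-CR5, held 3988 CPM. The next rose 2.56-fold, from 1231 ± 364 to 3154 ± 771 CPM (adjusted p = 0.00186), with a gap between 1876 CPM in HD-HR2 and 2268 CPM in CD-CR5. In both genes the CD-CR library nearest to HD-HR was the one whose name carries the prefix 13. HD-CR5, the other CKD recipient of prefix 13, held 4297 CPM of the first gene, the lowest HD-CR value. It held 2543 CPM of the second, where HD-CR ran from 1902 to 2928 CPM.

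The steepest change at this abundance was a 23.1-fold rise. That gene stood between 9.34 CPM (HD-HR4) and 93.8 CPM (HD-HR6) in HD-HR, and between 401 CPM (CD-CR4) and 2266 CPM (CD-CR1) in CD-CR. Its mean rose from 52.5 ± 32.2 CPM (SD, n = 6) to 1217 ± 749 CPM (n = 6), a log2 fold change of 4.53 ± 0.88 (SE, adjusted p = 0.00717 by edgeR). The CD-CR rats differed widely among themselves, yet every CD-CR library exceeded every HD-HR library. The fifth of these genes rose 2.62-fold, from 312 ± 64.8 to 816 ± 402 CPM (adjusted p = 0.0129), and here the groups overlapped, since CD-CR5 held 422 CPM and HD-HR2 held 431 CPM. The 4 genes that rose were called in each fit that left out 1 of the 12 libraries. All 5 lost the call with the prefix as a covariate (log2 -0.80, 0.96, 1.16, 4.74 and 1.06, in the order given), and all but the third lost it without CD-CR1 and CD-CR6 together. With 2 surrogate variables the same 4 were lost (edgeR adjusted p = 0.239, 0.159, 0.0811 and 0.152), and the gene that fell was also lost with no filter (0.0885) and with the 12 libraries alone (0.129).

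Among called genes averaging 1 CPM or more, ENSRNOG00000024689 had the smallest p of the genes that rose. In HD-HR its lowest, median and highest values were 11.03, 13.4 and 14.5 CPM, and in CD-CR they were 23.2, 35.6 and 44.6 CPM. The HD-HR rats were close to one another and all lay below the lowest CD-CR rat. The mean went from 12.9 ± 1.39 to 34.5 ± 8.94 CPM (SD, n = 6 each), 2.68-fold, with a log2 fold change of 1.42 ± 0.18 (SE, adjusted p = 0.000365 by edgeR). In CD-CR5, the CD-CR library of prefix 13, it stood at 25.1 CPM.

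ENSRNOG00000016182 rose from a low level. Its lowest, median and highest values were 0.328, 0.768 and 3.90 CPM in HD-HR, where the libraries held 3 to 46 reads of it, and 9.24, 15.9 and 21.3 CPM in CD-CR, with 77 to 243 reads. All CD-CR rats lay above all HD-HR rats, and the lowest CD-CR value was that of CD-CR5. This amounted to a 10.6-fold rise, or 3.40 ± 0.45 on the log2 scale (SE, edgeR adjusted p = 0.000566), and the few reads in HD-HR make the size of the fold imprecise.

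ENSRNOG00000008210 had the smallest p of the genes that fell. Its lowest, median and highest values were 12.4, 16.8 and 26.8 CPM in HD-HR and 3.36, 6.43 and 8.77 CPM in CD-CR. The groups did not overlap, and the CD-CR rat nearest to HD-HR was CD-CR4. The mean fell from 17.8 ± 5.12 to 6.32 ± 2.07 CPM (SD, n = 6 each), with a log2 fold change of -1.50 ± 0.24 (SE, adjusted p = 0.0013 by edgeR).

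ENSRNOG00000049975 fell less, by 0.93 ± 0.16 on the log2 scale (SE, adjusted p = 0.00179 by edgeR). Its lowest, median and highest values were 21.2, 30.1 and 43.1 CPM in HD-HR and 12.1, 15.4 and 20.7 CPM in CD-CR. Here the groups only just parted, with HD-HR6 at 21.2 CPM and CD-CR4 at 20.7 CPM. In each fit that left out 1 of the 12 libraries these 4 genes were called, with adjusted p between 4.08e-05 and 0.00717 by edgeR. With the prefix as a covariate none of the 4 passed: the log2 fold changes were 1.32, 2.79, -1.42 and -0.69, in the order given, with adjusted p of 0.185, 0.185, 0.227 and 0.282.

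**Figure D2:**
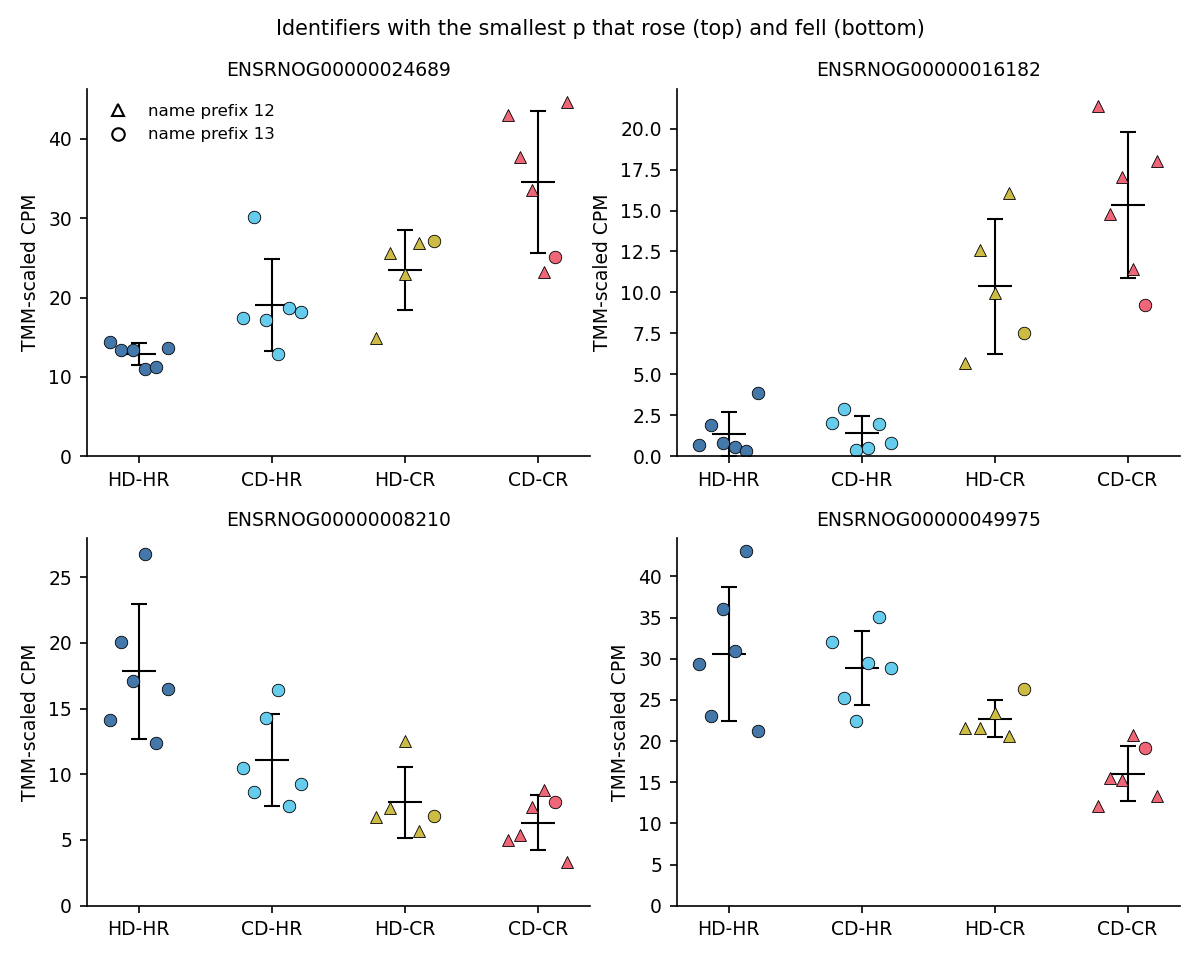
TMM-scaled CPM (vertical axis, starting at 0) of 4 genes in each of the 23 libraries by group, with triangles for rats of name prefix 12 and circles for prefix 13. Horizontal bars are group means and error bars are SD (n = 6, 6, 5 and 6). In all 4 panels the CD-CR points lie wholly outside the HD-HR points, and the HD-CR and CD-HR means lie between or close to them.

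The plot of these 4 genes by group also shows the groups that the comparison did not use. ENSRNOG00000016182 was at 1.44 ± 1.01 CPM in CD-HR (SD, n = 6), at the level of HD-HR, and at 10.4 ± 4.10 CPM in HD-CR (n = 5), and HD-CR exceeded CD-HR by 2.92 ± 0.48 on the log2 scale (SE, adjusted p = 0.00286 by edgeR). ENSRNOG00000024689 was at 19.1 ± 5.80 CPM in CD-HR and 23.5 ± 5.06 CPM in HD-CR, which overlapped (adjusted p = 0.328). For ENSRNOG00000008210 the corresponding levels were 11.1 ± 3.49 and 7.86 ± 2.70 CPM (adjusted p = 0.206), and for ENSRNOG00000049975 they were 28.9 ± 4.55 and 22.7 ± 2.28 CPM (adjusted p = 0.19). Of the 4 genes, ENSRNOG00000016182 alone passed the test between the libraries with disease in the recipient only and those with disease in the graft only.

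The same question was put to all 422 called genes, because HD-CR and CD-HR share no library with CD-CR and HD-HR. Of the 313 genes that rose, 243 (77.6%) were higher in HD-CR than in CD-HR, against 48.1% of all genes tested, and 38 (12.1%) were called higher while 0 were called lower. Over all genes tested 5.31% were called, 2.74% higher in HD-CR and 2.57% lower. Of the 109 genes that fell, 95 (87.2%) were lower in HD-CR, against 51.9% of all genes, and 15 (13.8%) were called lower while 0 were called higher. The median difference between HD-CR and CD-HR was 0.24 on the log2 scale for the genes that rose and -0.33 for those that fell, where CD-CR over HD-HR had 0.91 and -0.68. Most called genes, 275 of those that rose and 94 of those that fell, were not called between HD-CR and CD-HR in either direction, and neither were the 5 abundant genes (edgeR adjusted p between 0.0978 and 0.697). A change that HD-CR and CD-HR share cancels in this contrast, so a gene not called here may still differ from HD-HR in both. Between these libraries the fifth abundant gene ran the other way (log2 -0.41 in HD-CR over CD-HR), while the rest kept their direction. These libraries differ in prefix too (4 of 5 HD-CR rats have 12, and all CD-HR rats 13), and a single fit supplied the gene-wise spread for both comparisons. Each setting calls its own genes, so the counts of 38 of 313 and 15 of 109 are followed with the number called. With the prefix as a covariate edgeR called 0 genes between CD-CR and HD-HR, so both counts were bound to be 0. With 2 surrogate variables they were 0 of 35 and 0 of 5, and without CD-CR1 and CD-CR6 25 of 69 and 1 of 7. With non-unique alignments as a covariate they were 24 of 380 and 4 of 186, and by DESeq2 66 of 462 and 28 of 193. The count of 15 of 109 became 7 of 71, 4 of 53, 9 of 80 and 6 of 85 without HD-HR5, HD-HR4, HD-HR3 and HD-HR2. It became 4 of 45, 24 of 158, 5 of 61 and 6 of 54 without CD-CR6, CD-CR4, CD-CR2 and CD-CR1.

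The level of the called genes in each library was summarised as the median over the genes of log2 CPM less each gene's mean over the 23 libraries. For the genes that rose, HD-HR averaged -0.40 ± 0.10 and CD-CR 0.44 ± 0.26 (SD, n = 6 each), while CD-HR averaged -0.12 ± 0.25 (n = 6) and HD-CR 0.15 ± 0.14 (n = 5). For the genes that fell, the averages were 0.34 ± 0.10 in HD-HR, -0.36 ± 0.21 in CD-CR, 0.15 ± 0.16 in CD-HR and -0.14 ± 0.14 in HD-CR. The outer groups differ because the genes were chosen on them. The middle groups were not used for the choice, and they overlapped: for the genes that rose CD-HR ran from -0.43 to 0.26 and HD-CR from -0.06 to 0.31. Within CD-CR the order was uneven, with CD-CR1 (0.77) and CD-CR6 (0.70) farthest from HD-HR and CD-CR5 (0.15), CD-CR3 (0.24) and CD-CR4 (0.25) nearest. HD-CR5, the other CKD recipient of prefix 13, stood at 0.22 for the genes that rose and -0.23 for those that fell. In both sets it lay farther from HD-HR than the HD-CR average.

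**Figure D3:**
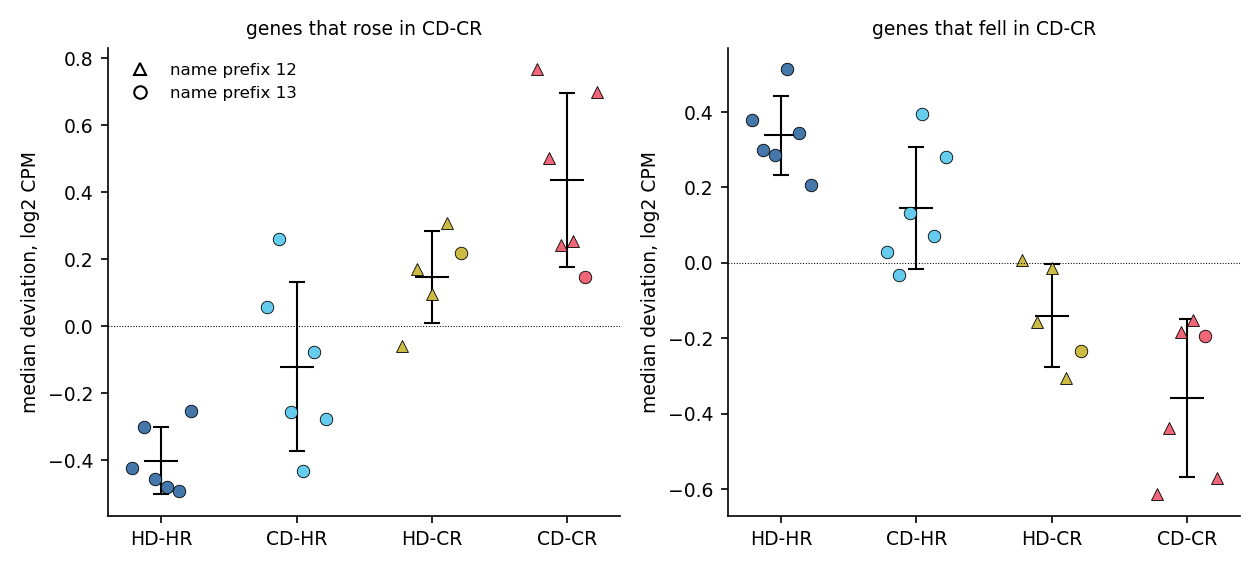
Each point is 1 library. The vertical axis is the median over the 313 genes that rose (left) or the 109 that fell (right) of log2 CPM less the gene's mean over all 23 libraries, with triangles for prefix 12 and circles for prefix 13, bars for group means and error bars for SD. CD-CR1 and CD-CR6 stand farthest from HD-HR in both panels, at 0.77 and 0.70 on the left.

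How far a single rat carried the difference was examined by calling the genes without that rat and then reading its own values. When CD-CR5 was left out, 365 genes rose and 149 fell between the other 5 CD-CR rats and HD-HR. In CD-CR5 itself the 365 genes stood a median of 0.44 above the HD-HR mean on the log2 scale, against 0.93 in the CD-CR rats of that fit. The 149 genes stood at -0.37, against -0.74. In CD-CR5 238 of the 365 genes (65.2%) exceeded all 6 HD-HR libraries, as did 15.2% of all tested genes, and 85 of the 149 (57.0%) lay below all 6, as did 17.5% of all. For the 5 CD-CR rats of prefix 12, treated in the same way, the genes that rose stood a median of 0.55 to 1.30 above HD-HR, and 71.8 to 94.9% of them exceeded all 6 HD-HR libraries, as did 13.5 to 26.96% of all tested genes. CD-CR1 had the highest share over all tested genes (26.96%), followed by CD-CR6 (22.4%). The genes that fell stood at -1.003 to -0.28 in those rats.

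HD-HR rats left out in turn gave medians between -0.06 and 0.28 for the genes that rose and between -0.30 and 0.01 for those that fell, and HD-HR6 was the HD-HR rat nearest to CD-CR in both. In these rats 12.2 to 40.5% of the genes that rose exceeded the 5 other HD-HR libraries, as did 12.7 to 18.9% of all tested genes. Of the genes that fell, 22.5 to 49.2% lay below those 5 libraries, as did 11.9 to 19.2% of all. HD-HR6 had the highest of these shares, 40.5% and 49.2%, and CD-CR4 had 48.7% for the genes that fell. By the medians the CD-CR5 library lay beyond every left-out HD-HR rat in both sets. Among CD-CR rats it was the nearest to HD-HR for the genes that rose. CD-CR4, at -0.28, was nearest for those that fell and lay within the range of the left-out HD-HR rats. The HD-HR reference for a left-out CD-CR rat had itself entered the calls, which builds in some of that rat's distance.

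**Figure D4:**
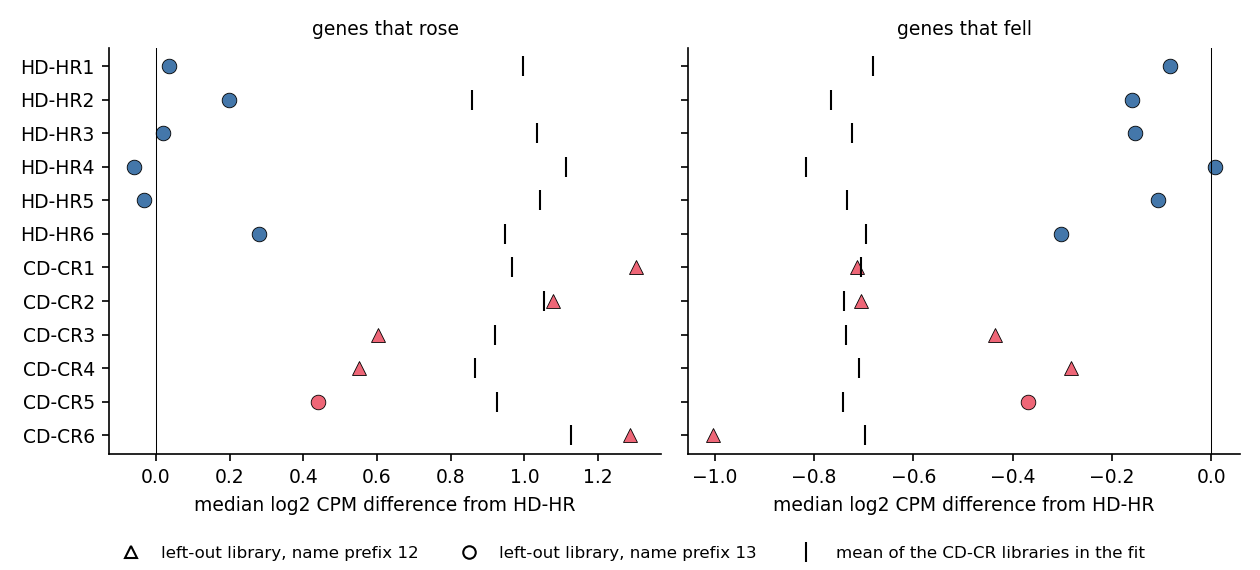
Each row is 1 rat left out of the fit. Coloured symbols (blue HD-HR, red CD-CR, triangles prefix 12, circles prefix 13) give the median log2 CPM difference between that rat and the mean of the HD-HR libraries in the fit, over the genes called without it, and black ticks give the same for the CD-CR libraries in the fit. CD-CR5 lies at 0.44 on the left and -0.37 on the right, beyond all HD-HR rats and short of the ticks.

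Over all genes, the wider spread among CD-CR rats rested on CD-CR1. The median SD of log2 CPM over all genes tested was 0.288 in CD-CR and 0.258 in HD-HR, and 6865 genes (59.3%) had the larger SD in CD-CR. Without CD-CR1 the CD-CR median was 0.262 and 50.1% of genes had the larger SD in CD-CR. Among the genes that rose the medians were 0.376 in CD-CR, 0.336 in CD-CR without CD-CR1 and 0.273 in HD-HR. Among those that fell they were 0.331, 0.287 and 0.238. No test of these spreads was made. On the first principal component of the 12 libraries, which held 28.3% of the variance, CD-CR averaged 18.3 ± 22.1 (SD, n = 6) and HD-HR -18.3 ± 7.59 (n = 6), and without CD-CR1 the CD-CR values on that component averaged 10.4 ± 12.2 (n = 5). The groups did not overlap on it: CD-CR5 was the lowest CD-CR library at -3.62 and HD-HR6 the highest HD-HR library at -11.9, while CD-CR1 lay at 57.6 and CD-CR6 at 26.1.

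CD-CR1 also stood apart in composition. Its 10 most abundant genes took 48.8% of the counts, against 63.3 to 67.6% in the other CD-CR rats and 55.03 to 63.8% in HD-HR. Over all 12 libraries that share averaged 62.3% ± 6.81 in CD-CR and 60.0% ± 2.99 in HD-HR (SD, n = 6 each, exact permutation p = 0.481, two-sided, adjusted 0.799 over 6 measures). None of the 6 measures of the libraries passed the adjustment, where the smallest p that 6 against 6 allows is 0.00216. The largest contrasts were in non-unique alignments per counted read (log2 0.33 ± 0.95 in CD-CR and 1.04 ± 0.59 in HD-HR, exact p = 0.145, adjusted 0.461) and in reads outside features (13.9% ± 2.51 and 15.7% ± 1.49, exact p = 0.154, adjusted 0.461).

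The number of called genes depended on the rats included and on the prefix, as the plot of called genes by setting shows. Without CD-CR6, CD-CR1 or HD-HR4 it was 227, 258 or 250, and without CD-CR1 and CD-CR6 together 76, of which 69 rose. The number that fell moved from 109 to 71, 71 and 53 without HD-HR1, HD-HR5 and HD-HR4, and to 45, 61 and 54 without CD-CR6, CD-CR2 and CD-CR1. With the prefix as a covariate in the edgeR fit 0 genes were called and 1408 had an unadjusted p under 0.05, against 2147 without it. Only CD-CR and HD-CR hold both prefixes, so the prefix term rests on CD-CR5 and HD-CR5 against the other rats of their groups. In that fit all 422 genes kept their direction, with a median of 0.76 for the genes that rose and -0.69 for those that fell, and the median standard error of the 422 genes went from 0.193 to 0.295. Among the 14 libraries of prefix 13 alone, where CD-CR5 is the only CD-CR library, 409 of the 416 genes still tested kept their direction, with medians of 0.53 and -0.57. Both of these fits reuse data on which the 422 genes were chosen, so part of the kept direction is built in. With 2 surrogate variables as covariates 40 genes were called.

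**Figure D5:**
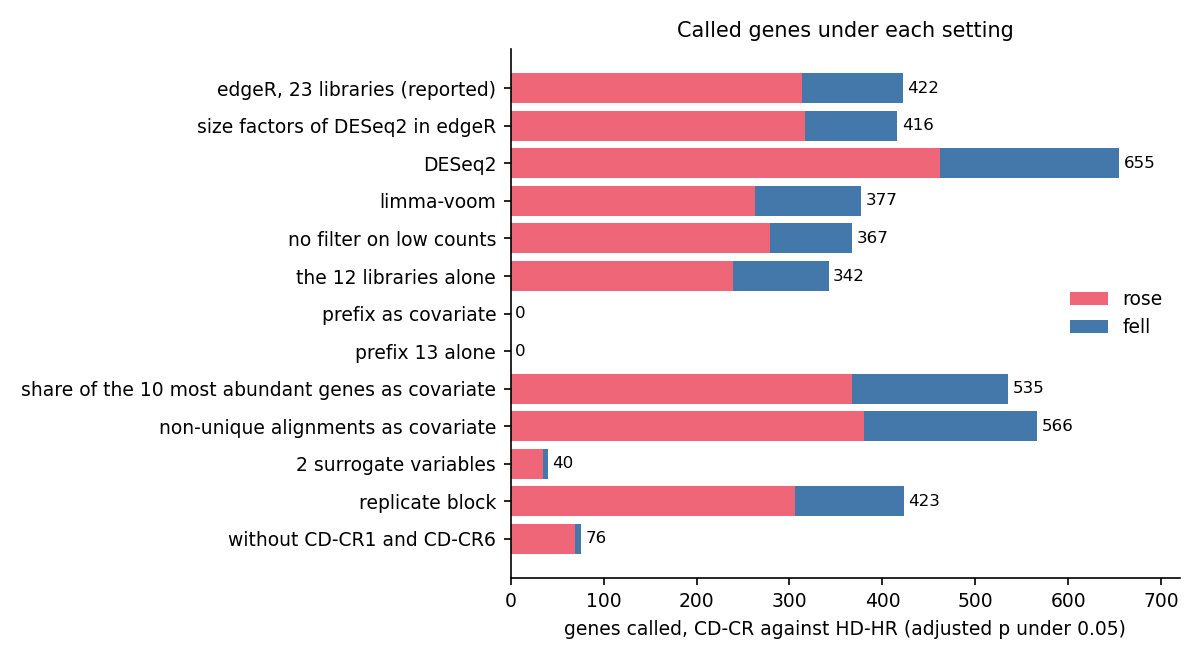
Horizontal bars give the number of genes called between CD-CR and HD-HR (adjusted p under 0.05) under each setting, red for genes that rose and blue for genes that fell, with the total printed at the end. The reported fit gave 422, the fits that take up the prefix gave 0, and the fit without CD-CR1 and CD-CR6 gave 76.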

How the data were processed

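RNA-seq read counts per gene were used for the heart apex of 23 rats, 1 library per rat. The deposited counts are whole numbers and not normalized. The submitters' processing notes name Rnor_5.0 as the build and HTSeq 0.6.1p1, STAR 2.4.2a and Picard as tools. Neither the annotation release nor the strand setting nor the handling of duplicate reads is stated there, so overlapping, antisense and near-identical genes may share reads. The 5 summary lines were left out of totals and tests; reads outside features came to 10.6 to 18.2% in the 12 libraries compared.

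In R 4.3.3, edgeR 4.0.16 (filterByExpr, TMM, robust glmQLFit) fitted the 4 groups together. Calls required a Benjamini-Hochberg adjusted p under 0.05 over 11568 genes. The standard error is the log2 fold change divided by the square root of F. Log2 CPM used a prior count of 2. The code was tested on simulated data. Groups came from the titles. Within CD-CR and within HD-HR no library was a copy of another: chi-square over degrees of freedom was 9.01 or more in all 30 pairs. Pairs in the other groups and between groups were not checked.

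The comparison and the gene lists were chosen with earlier results of these data known. The 47 gene lists could not be matched to identifiers (0 matched) and were not used. Without names, the rule named the 2 genes that rose and the 2 that fell with the smallest p, at a mean of at least 1 CPM. Alternatives were DESeq2 1.42.0 and its size factors, limma-voom (limma 3.58.1), no filter, the 12 libraries alone, covariates (prefix, composition, non-unique alignments, 2 surrogate variables from sva 3.50.0), the replicate number as a block, and each library left out. Leaving out CD-CR1 and CD-CR6 together, and the spread with each library left out, were added after seeing the data.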

Additional observations from a re-analysis of the deposited data

Results flagged for a closer look

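A library far from the rest of its group was looked for in 54 groups of values, and 5 were found; chance flags about 1 group in 20. The share of counts taken by the 10 most abundant genes was 48.8% in CD-CR1, far below the next CD-CR value of 63.3%. The fifth of the abundant genes that changed by at least 2-fold stood at 1570 CPM in CD-CR6, where the next CD-CR value was 852 CPM. The most abundant gene that rose stood at 7441 CPM in HD-CR2, with the next HD-CR value at 4994 CPM. ENSRNOG00000024689 stood at 30.1 CPM in CD-HR2, with the next CD-HR value at 18.7 CPM, and ENSRNOG00000008210 at 12.6 CPM in HD-CR3, with the next HD-CR value at 7.42 CPM. Of these values, those of CD-CR1 and CD-CR6 belong to the libraries compared in the report.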

How the results depend on the processing

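The count of 422 called genes was 655 by DESeq2, 0 with the prefix as a covariate, 0 within prefix 13, 40 with 2 surrogate variables and 76 without CD-CR1 and CD-CR6, and ran from 227 to 514 with each library left out. Its other alternatives gave 342 to 566. The lone CD-CR library within prefix 13 is assumed to vary like the other groups. The replicate numbers did not pair the libraries (correlation over 0.1 in 1 of 6 pairs, range -0.18 to 0.13, and 0 libraries closest to their own number), and with the replicate block 423 genes were called. The 4 identifiers and the 5 abundant genes kept their direction in every alternative run. The alternatives reuse the data on which these genes were chosen, so much of this is built in. The share of called genes that rose went from 74.2% to 87.5% with 2 surrogate variables and 90.8% without CD-CR1 and CD-CR6. DESeq2's size factors moved it to 76.2%. It was lower by DESeq2 (70.5%) and lowest with non-unique alignments as a covariate (67.1%). With each library left out, the differences of CD-CR less HD-HR ran from -181396 to 757335 in total counts, 1.24 to 4.99 points in the share of the 10 most abundant genes, -2.69 to -1.18 points in reads outside features, -0.0489 to 0.0771 points in ambiguous reads and -0.93 to -0.38 in log2 non-unique alignments. An unadjusted p under 0.05 came only without CD-CR1, for the share of the 10 most abundant genes, reads outside features and non-unique alignments (exact permutation p = 0.00649, 0.0195 and 0.0498). Depth limits the folds of genes with few reads in HD-HR, such as ENSRNOG00000016182.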
